A study of Mus musculus with 8 samples.

Results

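The 6 genes described here, Vsx1, Bhlhe23, Lhx4, Irx5, Irx6 and Isl1, encode transcription factors known for their roles in retinal bipolar cells. They were chosen by name from that known role and by no rule on their values, although earlier results of these data were known. All 6 are among the 17500 genes of the deposited table. The libraries were made from whole retinas of 8 mice aged 6 months on a C57BL/6J background, 4 labelled control and 4 labelled Rbfox2 KD. In the Rbfox2 KD mice both Rbfox2 alleles carry LoxP sites around exons (Rbfox2 fl/fl) and a tamoxifen-inducible Cre removes them, and the labels give a downregulation lasting 4 months. The controls are described as Rbfox2 fl/+, so they also carry 1 floxed allele; whether the controls sequenced here carried Cre is not stated in the sources used here, and the tamoxifen label is given to every mouse. The Cre is not restricted to bipolar cells, or to the retina. By immunostaining, the study described Rbfox2 protein in the mouse retina as limited to ganglion, horizontal and amacrine cells, which leaves out bipolar cells. Rbfox2 is an RNA-binding protein that regulates splicing and, through 3′ untranslated regions (3′ UTRs), RNA stability. The study asked which retinal genes depend on it in adult animals.

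Bipolar cells carry the signal of rods and cones to amacrine and ganglion cells. ON bipolar cells, which include all rod bipolar cells, respond to light through the metabotropic glutamate receptor Grm6 and the channel Trpm1, whereas OFF bipolar cells use ionotropic glutamate receptors. The LIM-homeodomain factor Isl1 is required for ON bipolar cells and is also found in cholinergic (starburst) amacrine cells and many ganglion cells. Bhlhe23 is a basic helix-loop-helix factor needed for rod bipolar cells, and Lhx4 is a LIM-homeodomain factor of cone bipolar cells. The paired-like homeodomain factor Vsx1 and the Iroquois factors Irx5 and Irx6 are known from subsets of cone bipolar cells, mainly OFF types. Fewer bipolar cells and less RNA per bipolar cell cannot be told apart in whole retina.

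Library totals lay between 160630226 and 211283591 counts on genes, and 16797 genes passed the filter on low counts, all 6 bipolar factors among them, with at least 1227 counts per library. Levels are given as CPM (counts scaled to a common library total) after scaling for library composition. Before that scaling, 3 counts equal 0.0142 to 0.0187 CPM. Rbfox2 itself was at 143.8 to 156.8 CPM in the controls and at 53.6 to 59.4 CPM in the Rbfox2 KD retinas, where it fell by 62.3%. The Rbfox2 KD libraries M901 and M902 held 277506 and 275967 counts of Xist against 312 to 426 in the other 6, and they stood apart on the first principal component, which held 40.5% of the variance; calls on the named genes and lists that change without these 2 libraries are stated beside them. The rod markers summed to 54830 to 61860 CPM over all libraries  and the 3 lens genes tested summed to 0.141 to 2.38 CPM.

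Because Rbfox proteins bind the letters GCATG, most strongly as TGCATG, the 3′ UTRs of the 6 genes were searched for both on the transcript strand (the shorter run also counts each longer one). None of the 6 UTRs held TGCATG, which was in 32.1% of the 3′ UTRs of all 13719 genes that could be searched. GCATG was present in 4 of the 6, with 2 matches each in Isl1 and Lhx4, 1 each in Bhlhe23 and Irx6, and none in Vsx1 and Irx5; over all genes 55.5% had at least 1 match. UTRs within 25% of the Isl1 UTR's length of 1199 bases held GCATG in 65.3% of genes. The same share was 97.5% for the length of Lhx4 (4191 bases), 85.9% for Vsx1 (2299 bases), 77.8% for Bhlhe23 (1691 bases), 68.0% for Irx6 (1303 bases) and 38.7% for Irx5 (560 bases). The 6 matches are shown with 12 bases on each side, 5′ to 3′ in transcript sense, with the searched letters in capitals (GENCODE M21 transcripts, build GRCm38).
Isl1, match at UTR base 149, chr13:116299315-116299343, minus strand: gctccaggaagcGCATGaagtctgttcta
Isl1, match at UTR base 613, chr13:116298851-116298879, minus strand: tgggtctcttaaGCATGccctgtagctgg
Lhx4, match at UTR base 3456, chr1:155698750-155698778, minus strand: gaagggctctggGCATGctgaaagctaaa
Lhx4, match at UTR base 4140, chr1:155698066-155698094, minus strand: tcctgtgtgctgGCATGagatgtgtatgg
Bhlhe23, match at UTR base 1620, chr2:180774436-180774464, minus strand: gcagagacagggGCATGgggattctgaga
Irx6, match at UTR base 83, chr8:92679724-92679752, plus strand: ttccagaccttgGCATGgactgggagctc
These matches are letters in the annotated UTR, not measured binding sites, and introns and coding sequence were not searched.

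Compared per length, in the authors' FPKM (counts scaled to gene model length and library total), the 6 factors formed an order that changed little between mice. Isl1 had the highest level, with a median of 25.04 FPKM over the 8 libraries (22.4 to 27.9), above 82.5% of the genes in the table. Bhlhe23 followed at 16.0 FPKM (15.3 to 16.9), and the Isl1 level was 1.45 to 1.81 times the Bhlhe23 level within a library. Lhx4 at 11.7 FPKM (10.97 to 12.15) and Vsx1 at 11.1 FPKM (10.4 to 12.4) overlapped, with Lhx4 the higher of the pair in 5 of 8 libraries. The Iroquois factors were lowest: Irx6 was at 8.28 FPKM (7.42 to 9.42) and Irx5 at 3.21 FPKM (2.69 to 3.57), above 38.9% of genes. Irx6 exceeded Irx5 by 2.25 to 2.97 times in each library, although both lie on the plus strand of chromosome 8 in 1 Iroquois cluster with Irx3. The ranges of the other neighbours in the order did not overlap.

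**Figure D1:**
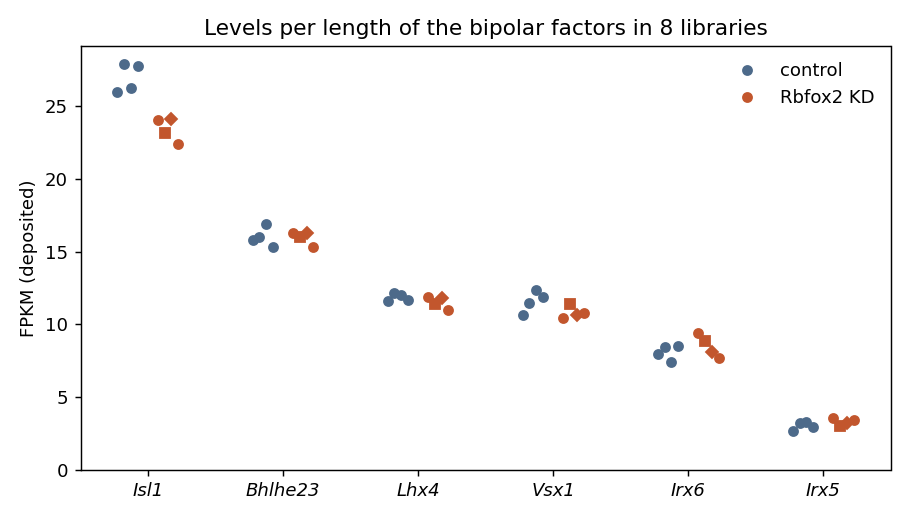
Deposited FPKM (y axis, linear from 0) of the 6 bipolar transcription factors (x axis, ordered by median) in the 4 control (blue) and 4 Rbfox2 KD (orange) retinas, 1 symbol per library, with squares for M901 and diamonds for M902. Isl1 lies highest at 22.4 to 27.9 FPKM, Irx5 lowest at 2.69 to 3.57 FPKM, and only Lhx4 and Vsx1 overlap as neighbours.

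None of the 6 factors passed an adjusted p of 0.05 between Rbfox2 KD and control retinas in edgeR's quasi-likelihood test (Benjamini-Hochberg adjusted over all genes), a call made for 0.0655% of all tested genes (11 of 16797). At an unadjusted p below 0.05, 1 of the 6 was called (Isl1, lower), against 13.3% of all genes (6.87% lower); without M901 and M902 it was again 1 of 6, against 6.01%. Isl1 was also the only member whose control and Rbfox2 KD levels did not overlap, as was the case for 7.03% of all genes (3.39% with the Rbfox2 KD retinas lower and 3.64% with them higher). DESeq2 called 1 of the 6 at the adjusted threshold (Isl1), against 2.77% of all genes, while the edgeR likelihood ratio test and limma-voom called none, against 0.976% and 0.0655%. The members split evenly in sign, with 3 log2 fold changes above and 3 below 0 and a median of -0.0059, beside 0.0016 for all tested genes.

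Isl1 lies at chr13:116298281-116309689 on the minus strand (6 exons, GRCm38). Its level was 66.6, 69.6, 65.6 and 69.1 CPM in the controls and 60.3, 59.3, 61.6 and 57.0 CPM in the Rbfox2 KD retinas. Every Rbfox2 KD retina was below every control, M902 being the highest and M909 the lowest of the Rbfox2 KD retinas. The means were 67.7 ± 1.90 and 59.5 ± 1.95 CPM (SD, n = 4 each), a log2 fold change of -0.19 (SE 0.037, 95% interval -0.27 to -0.10) or 12.1% less. The unadjusted p was 0.000532, the adjusted p 0.116 (edgeR quasi-likelihood, Benjamini-Hochberg), and the two-sided exact permutation p for Isl1 alone 0.0286, the smallest that 4 against 4 mice allow. Isl1 thus differed by more than the spread between mice when taken alone, but did not pass once all 16797 genes were counted, where it ranked 75 by p. By DESeq2 its adjusted p was 0.000929 at the same log2 fold change of -0.19. Without M901 and M902 the log2 fold change was -0.21, with an unadjusted p of 0.0028 and an adjusted p of 0.496.

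**Figure D2:**
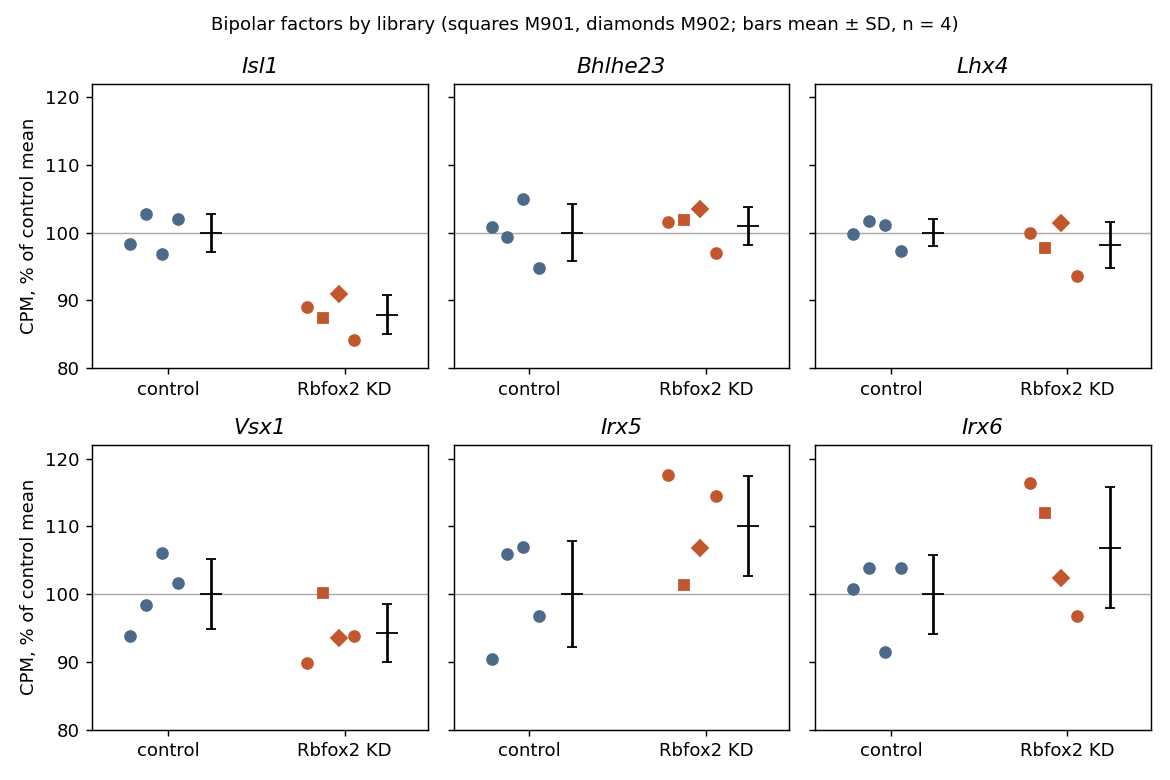
CPM of each bipolar factor as a percentage of its control mean (y axis, not from 0) in control (blue) and Rbfox2 KD (orange) retinas, 1 symbol per library, squares M901, diamonds M902, bars mean ± SD (n = 4). Isl1 is at 84.1 to 91.0% in the Rbfox2 KD retinas, below all controls, and the groups overlap for the other 5 genes.

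Bhlhe23, a gene of 1 exon at chr2:180774381-180776900 (minus strand), had near equal levels in both groups. The controls were at 40.4, 39.9, 42.1 and 38.0 CPM and the Rbfox2 KD retinas at 40.8, 40.9, 41.5 and 38.9 CPM, so the groups overlapped fully. The log2 fold change was 0.01 (SE 0.042, adjusted p = 0.916 by edgeR's quasi-likelihood test), and the 95% interval ran from -5.38% to 7.85%; its sign turned to -0.01 without M901 and M902. The annotated transcript Gm14343 overlaps Bhlhe23 on the same strand, so reads of the pair could be shared.

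Lhx4 (chr1:155698031-155751684, minus strand, 6 exons) was at 21.8, 22.2, 22.1 and 21.2 CPM in the controls and at 21.8, 21.3, 22.1 and 20.4 CPM in the Rbfox2 KD retinas. It was the steadiest of the 6 genes in the controls (21.8 ± 0.433 CPM, SD, n = 4), and the groups overlapped. Its log2 fold change was -0.03 (SE 0.042, adjusted p = 0.829 by edgeR's quasi-likelihood test), with a 95% interval from -8.02% to 4.81%.

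Vsx1 (chr2:150680702-150689360, minus strand, 5 exons) was at 38.6, 40.5, 43.7 and 41.8 CPM in the controls and at 36.9, 41.2, 38.5 and 38.6 CPM in the Rbfox2 KD retinas. The Rbfox2 KD retinas M893, M902 and M909 were below the lowest control, the last by only a small margin, and M901 was among the controls. The log2 fold change was -0.08 (SE 0.050, adjusted p = 0.495 by edgeR's quasi-likelihood test; two-sided exact permutation p = 0.143), and the 95% interval ran from -12.7% to 1.87%. Without M901 and M902 the value was -0.13 (unadjusted p = 0.0724 in the edgeR fit), and without M833 it was -0.12 (unadjusted p = 0.0450, a threshold then passed by 17.6% of all genes).

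The Iroquois pair had the widest intervals and positive values. Irx5 (chr8:92357625-92376286, plus strand, 3 exons) was at 6.55, 7.67, 7.74 and 7.01 CPM in the controls and at 8.52, 7.35, 7.73 and 8.29 CPM in the Rbfox2 KD retinas. M893 and M909 exceeded every control, whereas M901 and M902 lay among the controls. The log2 fold change was 0.14 (SE 0.077, adjusted p = 0.465 by edgeR's quasi-likelihood test; two-sided exact permutation p = 0.143), with a 95% interval from -2.25% to 24.0%, and without M901 and M902 it was 0.21 (unadjusted p = 0.0552, adjusted p = 0.839, in the edgeR fit).

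Irx6 (chr8:92674288-92680956, plus strand, 6 exons) was at 19.3, 19.8, 17.5 and 19.8 CPM in the controls and at 22.2, 21.4, 19.6 and 18.5 CPM in the Rbfox2 KD retinas. Here M893 and M901 exceeded every control, so the 2 Iroquois genes shared only M893 among the retinas above the control range. Its log2 fold change was 0.10 (SE 0.068, adjusted p = 0.577 by edgeR's quasi-likelihood test), with a 95% interval from -3.83% to 18.7%. The antisense gene Gm45505 overlaps Irx6 and the strand setting of the counting is not given in the sources used here, so reads of the pair cannot be told apart. Irx3, the third gene of the cluster, was at 3.86 ± 0.634 CPM in the controls and 3.61 ± 0.449 CPM in the Rbfox2 KD retinas (SD, n = 4 each; log2 fold change -0.09, adjusted p = 0.815).

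Related genes of the same families were followed beside the 6 factors, namely Bhlhe22, Lhx3, Irx1, Irx2, Irx3, Irx4 and Isl2. In edgeR's quasi-likelihood fit none of these 7 genes passed an unadjusted p of 0.05, with or without M901 and M902. Their log2 fold changes lay between -0.12 and 0.00039, with 6 of 7 below 0 and a median of -0.08.

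Among 16 other regulators of bipolar cells, 1 was higher and 1 was lower at an unadjusted p below 0.05, beside 6.42% and 6.87% of all genes, and none passed the adjusted threshold. The higher one was Prdm1, the zinc-finger repressor that holds back the bipolar fate in developing photoreceptors. Its level was 12.4, 11.1, 11.8 and 13.3 CPM in the controls and 15.1, 15.8, 17.8 and 16.7 CPM in the Rbfox2 KD retinas. Prdm1 was above every control in 4 of 4 Rbfox2 KD retinas, as were 3.64% of all genes. It was 34.5% higher, with a log2 fold change of 0.43 (SE 0.070) and an adjusted p of 0.0837 by edgeR's quasi-likelihood test. DESeq2 and the edgeR likelihood ratio test gave it an adjusted p of 1.1e-05 and 0.00128, whereas without M901 and M902 its log2 fold change was 0.38 and its adjusted p 0.486. The lower gene was Nfib, a nuclear factor I protein (log2 fold change -0.18, unadjusted p = 0.0389, adjusted p = 0.355), for which M909 lay among the controls. The Nfib value without M901 and M902 was -0.09 (unadjusted p = 0.311), and leaving out any 1 of M833, M894, M898, M893, M901 and M902 also put its unadjusted p above 0.05. The remaining 14 regulators lay between -0.12 and 0.06 on the log2 scale, with Otx2, the homeodomain factor of photoreceptors and bipolar cells, at the upper end.

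**Figure D3:**
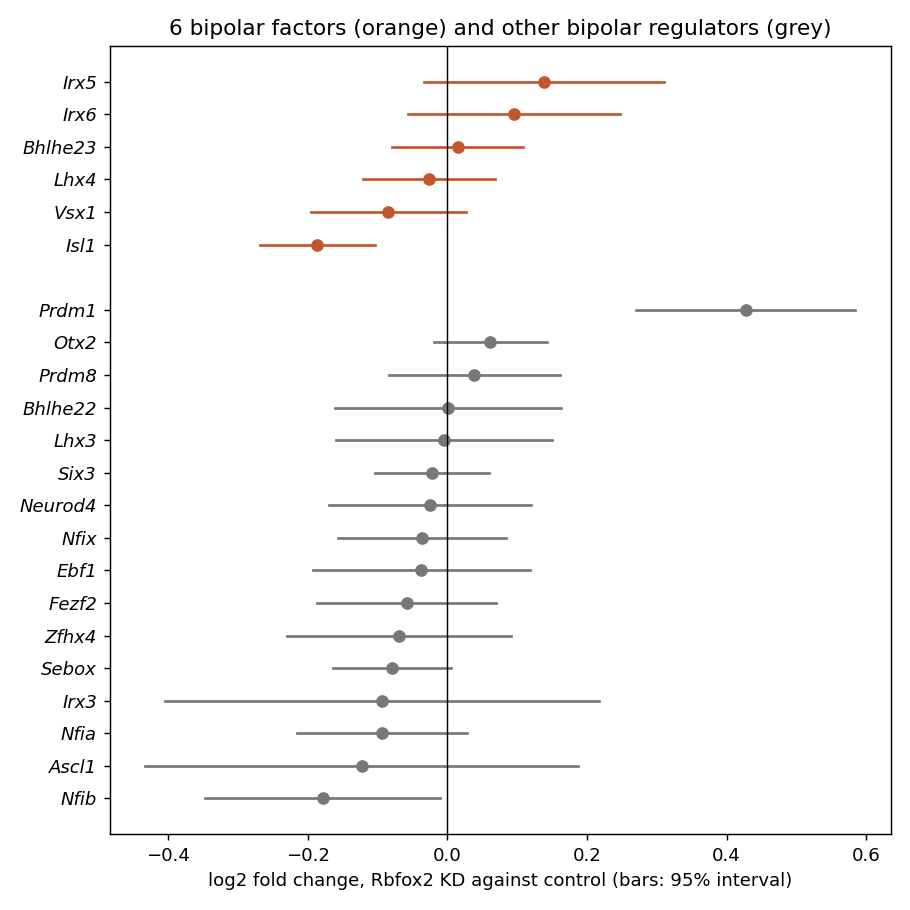
log2 fold change of Rbfox2 KD against control (x axis, 0 marked) with 95% intervals from edgeR's quasi-likelihood fit (n = 4 each) for the 6 bipolar factors (orange) and 16 other bipolar regulators (grey). Among the 6, only the interval of Isl1 (-0.27 to -0.10) lies clear of 0; Prdm1 has the most positive value at 0.43.

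LIM-homeodomain factors such as Isl1 and Lhx4 act together with the bridging proteins Ldb1 and Ldb2, and LMO proteins compete for that contact. Of the 6 cofactors tested (Ldb1, Ldb2 and Lmo1 to Lmo4), 2 were lower at an unadjusted p below 0.05, beside 6.87% of all genes. None passed the adjusted threshold. Lmo4 was at 47.8 ± 2.42 CPM in the controls and 42.9 ± 0.573 CPM in the Rbfox2 KD retinas (SD, n = 4 each). It was below all controls in 4 of 4, as were 3.39% of all genes (log2 fold change -0.16, adjusted p = 0.216 by edgeR's quasi-likelihood test). Lmo2 was at 7.41 ± 0.246 and 6.42 ± 0.701 CPM, with 3 of 4 below all controls (adjusted p = 0.336). The bridging proteins were at log2 fold changes of -0.08 (Ldb1) and -0.07 (Ldb2), neither past an unadjusted p of 0.05. Like Lmo4, Ldb2 was below all controls in 4 of 4 Rbfox2 KD retinas. Without M901 and M902, 1 of the 6 cofactors remained past that threshold, beside 6.01% of all genes.

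The marker genes of the cells that contain these factors gave the setting for the Isl1 values. Rod bipolar markers (Prkca, Car8, Pcp2, Vstm2b, Cabp5 and Sebox) had 6 of 6 log2 fold changes below 0, with a median of -0.10. At an unadjusted p below 0.05, 2 of 6 were lower, beside 6.87% of all genes. Their sum was 849.3 to 896.7 CPM in the controls and 798.9 to 843.4 CPM in the Rbfox2 KD retinas, without overlap. Prkca, its largest part, was not called (log2 fold change -0.05), with 3 of 4 Rbfox2 KD retinas below all controls and M909 above them. Sums of other lists also did not overlap, lower for horizontal cell markers (236.2 to 265.3 and 223 to 234.6 CPM) and the 6 cofactors (202.5 to 214.9 and 187.8 to 201.8 CPM). Those of the cone markers were higher (922.1 to 923.1 and 983.3 to 1114 CPM). Pcp2, a regulator of G protein signalling in rod bipolar and some ON cone bipolar cells, was at 108.7, 108.3, 111.2 and 116.0 CPM in the controls and 98.5, 98.2, 103.3 and 92.3 CPM in the Rbfox2 KD retinas. It was below all controls in 4 of 4, as were 3.39% of all genes. The log2 fold change was -0.18 (SE 0.040, unadjusted p = 0.00117, adjusted p = 0.149 by edgeR's quasi-likelihood test, and DESeq2 adjusted p = 0.00773). Cabp5, a calcium-binding protein of rod bipolar and some cone bipolar cells, had a log2 fold change of -0.14 (unadjusted p = 0.0076, adjusted p = 0.239), and 3 of 4 Rbfox2 KD retinas were below all controls. Without M901 and M902, 3 of the 6 rod bipolar markers were past the unadjusted threshold, beside 6.01% of all genes.

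The ON bipolar markers did not move as 1 group. Of Grm6, Trpm1, Nyx, Gpr179, Lrit3, Rgs11 and Gng13, 5 of 7 had positive log2 fold changes, the median was 0.06, and the sums overlapped (886.6 to 1038 CPM in the controls and 916.2 to 978.6 CPM in the Rbfox2 KD retinas). The 1 gene past an unadjusted p of 0.05 was Gng13 (lower, beside 6.87% of all genes), the G protein gamma subunit of the Grm6 pathway. It was at 70.9, 69.7, 71.7 and 70.2 CPM in the controls and 62.2, 64.6, 67.4 and 61.8 CPM in the Rbfox2 KD retinas. Gng13 was thus below all controls in 4 of 4, as were 3.39% of all genes. Its log2 fold change was -0.14 (SE 0.036, adjusted p = 0.192 by edgeR's quasi-likelihood test, and DESeq2 adjusted p = 0.0260). OFF bipolar markers had a median of 0.01 and overlapping sums (345.2 to 381.6 and 364.9 to 380.7 CPM). Past the unadjusted threshold was 1 of 8, the higher Nnat, a small membrane protein, beside 6.42% of all genes higher. Nnat was at 17.5 ± 1.31 CPM in the controls and 20.9 ± 1.07 CPM in the Rbfox2 KD retinas (SD, n = 4 each). It was above all controls in 4 of 4, as were 3.64% of all genes (log2 fold change 0.25, adjusted p = 0.184 by edgeR's quasi-likelihood test).

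**Figure D4:**
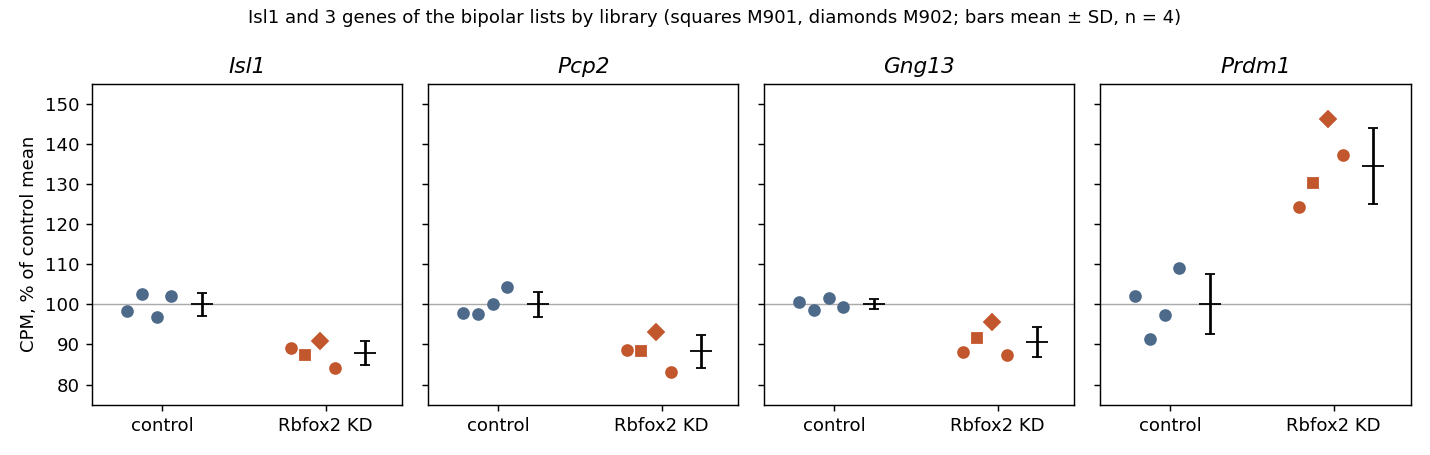
CPM as a percentage of the control mean (y axis, not from 0) of Isl1, the bipolar markers Pcp2 and Gng13, and the regulator Prdm1 in control (blue) and Rbfox2 KD (orange) retinas, 1 symbol per library, squares M901, diamonds M902, bars mean ± SD (n = 4). Isl1, Pcp2 and Gng13 lie at 83.1 to 95.5% and Prdm1 at 124.2 to 146.3% in the Rbfox2 KD retinas. Pcp2 and Gng13 had the profiles nearest to Isl1 among the listed genes and do not stand for all bipolar markers. By log2 fold change, 5 of the 7 ON bipolar markers were higher and 2, Gng13 among them, were lower. Of the 8 OFF bipolar markers 5 were higher and 3 lower. All 6 rod bipolar markers, Pcp2 among them, were lower, with Prkca changed by only -3.57%.

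Isl1 is also made outside bipolar cells, and markers of those cells were measured beside it. Of the 6 starburst amacrine markers, Slc5a7, the choline transporter, and Megf11 were lower at an unadjusted p below 0.05, beside 6.87% of all genes. Their log2 fold changes were -0.22 and -0.14 (adjusted p = 0.268 and 0.317 by edgeR's quasi-likelihood test). Without M901 and M902 neither passed, at values of -0.21 (unadjusted p = 0.0586) and -0.12 (unadjusted p = 0.122). Chat, the enzyme that makes acetylcholine, was at a log2 fold change of -0.05, and the starburst sums overlapped (161.5 to 179.6 CPM in the controls, 157.1 to 174.8 CPM in the Rbfox2 KD retinas). None of 10 ganglion cell markers passed the unadjusted threshold, and their sums overlapped as well (805.0 to 1294 and 996.1 to 1322 CPM). The control M833 stood apart in these markers: its sum was 805.0 CPM against 1247 to 1294 CPM in the other 3 controls, and the next lowest library was the Rbfox2 KD retina M909 at 996.1 CPM. Without M833, 2 of the 10 were lower at an unadjusted p below 0.05, Rbpms (log2 fold change -0.25, adjusted p = 0.140 in the edgeR fit) and Nefh (-0.23, adjusted p = 0.248), both named after their values were seen, and 17.6% of all genes passed. Isl1 without M833 was at -0.20, with an adjusted p of 0.0931. No marker of the bipolar, starburst or ganglion lists was at 0 counts in any library. The part of these cells in the Isl1 value was not tested.

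Other retinal cells and tissue at the edge of the dissection were followed through the same markers. None of 7 amacrine markers passed the unadjusted threshold. Of 5 horizontal cell markers 1 was higher (Lhx1) and 1 lower (Calb1), and Calb1, a calcium-binding protein, fell by 0.40 on the log2 scale with an adjusted p of 0.0034 (edgeR's quasi-likelihood test; 0.0501 without M901 and M902). The counts past the unadjusted threshold were 2 of 6 rod markers and 2 of 6 cone markers higher, and 1 of 6 cone, 1 of 6 Müller glia, 1 of 6 microglia, 2 of 6 vascular, and 2 of 6 pigment and ciliary epithelium markers lower, beside 6.42% of all genes higher and 6.87% lower. The rod count was 3 and the cone count 2 without M901 and M902, the lower cone call on the opsin Opn1mw being lost (log2 fold change -0.23 with all libraries and -0.21 without, unadjusted p = 0.146). The pigment and ciliary sums ranged over 56.8 to 149.9 CPM in the controls and 44.5 to 107.8 CPM in the Rbfox2 KD retinas, and those of the Müller glia markers over 4936 to 5449 and 4452 to 4972 CPM. The part of these shifts in the values of the bipolar factors was not tested.

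Among the 118 other genes of these lists, those whose profile over the 8 libraries was most like each factor were found by the root mean square difference of log2 CPM, each gene centred on its control mean. For Isl1 they were Pcp2 (0.036) and Gng13 (0.053), beside a root mean square of 0.137 for Isl1 itself. By this measure any gene with steady controls and a fall of like size lies near Isl1, whatever its cell type. Lmo4 (-10.3%) and the Müller glia marker Glul (-11.3%) were also below all controls in 4 of 4 Rbfox2 KD retinas, as were 3.39% of all genes. Other genes of the cofactor, amacrine, horizontal cell, vascular, and pigment and ciliary epithelium lists were so too. Only genes of these lists were compared, so the share of all genes that lie as near is not known. Vsx1 was nearest to Sebox (0.055) and Ldb2 (0.059), Bhlhe23 to the inhibitory transmitter carrier Slc32a1 (0.036) and to Lhx4 (0.041), and Lhx4 to Ldb2 (0.036) and Pax6 (0.036). Bhlhe23 and Lhx4 hardly left their control means (0.046 and 0.040), so that any steady gene lies near them. The Iroquois genes had looser neighbours: Irx5 was nearest to Lhx1 (0.079) and Aqp4 (0.090), and Irx6 to Nrl (0.094) and Otx2 (0.097), beside 0.135 and 0.113 for the 2 genes themselves. The libraries share depth and composition, and these distances are given as a description over 8 libraries.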

How the data were processed

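Retinal poly(A) RNA was sequenced by the study on a NovaSeq. The submitters' notes name CASAVA 1.8.2, edgeR and the builds mm10 and GRCm38, and the authors aligned reads with STAR and counted unique reads per gene with HTSeq. The deposited table holds raw counts per gene, used for all tests, and FPKM values that the authors computed from those counts, used only to compare levels between genes. Columns of size-adjusted counts and of the authors' own comparison (fold changes and p-values) were not used. Genes were filtered with filterByExpr, scaled by TMM and tested in edgeR 4.0.16 (R 4.3.3) with its quasi-likelihood test, 4 controls against 4 Rbfox2 KD, without covariates and with adjustment over 16797 genes. The SE is the log2 fold change divided by the root of F. The steps were tested on simulated data with changes larger than those of the 6 factors, so the detection of changes this small was not tested. Exact permutation tests ran over all 70 groupings. Alternatives were DESeq2 1.42.0, the likelihood ratio test, limma-voom (3.58.1), other scalings and filters, leaving libraries out, high Xist as a term, and 1 surrogate variable (sva 3.50.0). Libraries are separate mice; no 2 agreed within sampling noise. The genes, marker lists and relatives were chosen with earlier results of these data known; 1 list gene is not reported here and was left out of the list counts. Named were the 6 factors, list genes with an unadjusted p below 0.05 or that check a cell type, the 2 nearest profiles of each factor, Rbfox2 and Xist. Marker list counts without M901 and M902, ganglion markers without M833, and the alternatives for list genes, were added after seeing the data. 3′ UTRs came from the GENCODE M21 transcript that shares the table's RefSeq accession.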

Additional observations from a re-analysis of the deposited data

Results flagged for a closer look

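Of 62 groups of 4 libraries examined for a library far from the others (the 6 bipolar factors and 25 other named genes, in each group of mice), 1 was marked, where chance would mark about 3.1. It was Slc5a7, the choline transporter of starburst amacrine cells, in the controls: M894 was at 18.5 CPM against 22.4 to 22.6 CPM in the other 3, a gap of 0.958 of the group's range. None of the 12 groups of the bipolar factors was marked.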

How the results depend on the processing

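Isl1 kept its sign and an unadjusted p below 0.05 in all 18 alternatives, with log2 fold changes of -0.21 to -0.17 and adjusted p-values of 0.00093 to 0.496. It passed the adjusted threshold only with DESeq2 (-0.187, adjusted p = 0.000929). With single libraries left out it lay between -0.20 and -0.17 (adjusted p 0.0931 to 0.346). Vsx1 (-0.13 to -0.05), Lhx4 (-0.05 to -0.0038), Irx5 (0.09 to 0.22) and Irx6 (0.05 to 0.14) kept their sign and stayed short of the adjusted threshold. Bhlhe23, near 0, changed sign to -0.012 without M901 and M902, to -0.0097 with high Xist as a term and to -0.025 with 1 surrogate variable, and lay between -0.0100 and 0.039 with single libraries left out. The factors past an unadjusted p of 0.05 numbered 2 with the Xist term and 2 with the surrogate variable, Isl1 and Irx5 in both fits. With single libraries left out they numbered 1 to 2 (2 without M833, Isl1 and Vsx1). The other regulators numbered 1 to 4 (1 without M833, M894, M893, M901 or M902 and 4 without M909) against 2. At the adjusted threshold DESeq2 called 1 factor. Over all genes, 11 passed it in the quasi-likelihood test, 465 with DESeq2, 164 with the likelihood ratio test, 1 without M901 and M902, 4 with the Xist term, 5 with the surrogate variable, and 5 to 35 with single libraries left out (35 without M833, 19 without M894, 6 without M898, and 5 without each of M896, M893, M901 and M909). At the unadjusted threshold 2233 genes passed with all libraries (13.3% of the genes tested). The number was 1027 (6.01%) without M901 and M902, 1113 (6.63%) with the Xist term and 1102 (6.56%) with the surrogate variable. It was 2965 without M833 and 2992 without M909 (17.6% and 17.8% of the genes tested). Without M901 and M902 the counts of marker genes past that threshold went from 2 to 0 (starburst), 1 to 0 (microglia), 2 to 1 (vascular), 2 to 1 (pigment and ciliary), 3 to 2 (cone), and 2 to 3 (rod and rod bipolar). The causes were not tested, except that fewer mice remain where libraries are left out. No paired analysis was possible because the labels give each mouse an ID of its own and nothing that ties a control to an Rbfox2 KD mouse.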
